A study of Homo sapiens with 16 samples.

Results

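The 48 genes described here encode the autophagy machinery, its cargo receptors, the transcription factors that act on lysosomal genes, and lysosomal membrane, enzyme and proton pump proteins. They were chosen by name from lists of known autophagy and lysosome genes and are 48 of the 19898 genes in the expression table. All 48 passed the filter on low values, so none was lost before testing. Here they are grouped by role into initiation and phosphatidylinositol 3-kinase complexes (7), phagophore expansion and conjugation (12), the ATG8 family (5), cargo receptors (5), MiT/TFE transcription factors (3), lysosomal membrane proteins (5), lysosomal enzymes (8) and subunits of the lysosomal proton pump, the V-ATPase (3).

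The samples were SH-SY5Y cells, an established human neuroblastoma line, which in all 4 groups had been differentiated toward dopamine-like neurons for 15 days. The 2D cells grew on flat dishes and the 3D cells inside scaffolds of silk and collagen. Each culture was left without toxin or received, for the last 48 h, 1 mM MPP (1-methyl-4-phenylpyridinium), the toxic metabolite that inhibits mitochondrial complex I and is used to model Parkinson's disease. Poly-A RNA was sequenced from 4 libraries in each of the groups untreated 2D, MPP 2D, untreated 3D and MPP 3D. The labels do not say whether the 4 came from separate cultures, so the p-values below measure the spread between these libraries, which may be technical. Cells on dishes were detached with an enzyme solution before freezing and scaffolds were frozen whole, so an effect of the culture and one of the harvest cannot be told apart.

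Autophagy encloses part of the cytoplasm in a double membrane, the autophagosome, and delivers it to the lysosome for breakdown. The ULK kinase complex starts the process, a phosphatidylinositol 3-kinase complex marks the membrane, conjugation enzymes attach ATG8 proteins to it, and receptors tether ubiquitin-tagged cargo or mitochondria to those ATG8 proteins. Lysosomes hold acid hydrolases and are acidified by the V-ATPase. TFEB and TFE3 raise the transcription of many lysosomal and autophagy genes by binding a promoter element, the CLEAR element, built on an E-box core. Neurons do not dilute damaged organelles by dividing and depend on this pathway, and inherited defects in several lysosomal genes are linked to Parkinson's disease or to storage disorders of the nervous system.

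The E-box core CACGTG, which reads the same on both strands, was searched from 250 bases before to 50 after the transcription start in RefSeq promoter windows of GRCh38.p14. It was present in 2548 of 35116 windows (7.26%), or 2396 of 27305 genes (8.77%). Among the 48 genes, 40 had a window and 8 of these held the core: ATG14, ATG3, LAMP1, MCOLN1, CTSA, CTSD, GAA and ATP6V0D1. No window was at hand for RB1CC1, MAP1LC3A, LAMP2, LAMP3, CTSB, HEXA, ATP6V1A and ATP6V1H. The stretches around the cores are shown for the 5 genes among these whose response to MPP differed between dish and scaffold, a choice made after the values were seen. Each is written 5′ to 3′ on the gene's own strand, ends at or before the RefSeq start, and has the E-box core in capitals. In ATG3, CTSA and CTSD the GENCODE annotation of GRCh38 also has an exon of a longer transcript over the stretch.
LAMP1, chr13:113297025-113297124, plus strand: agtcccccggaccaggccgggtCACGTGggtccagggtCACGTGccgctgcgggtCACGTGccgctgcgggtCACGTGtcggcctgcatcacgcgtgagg
MCOLN1, chr19:7522561-7522623, plus strand: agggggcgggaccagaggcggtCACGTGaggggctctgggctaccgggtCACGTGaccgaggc
CTSA, chr20:45891290-45891318, plus strand: tgtCACGTGgcgccggagttCACGTGact
CTSD, chr11:1763957-1763986, minus strand: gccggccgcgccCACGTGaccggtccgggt
ATG3, chr3:112561963-112561992, minus strand: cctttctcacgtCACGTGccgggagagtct
LAMP1 carried 4 cores in the stretch shown and 6 in its whole window, more than any of the other 7 genes, which had 1 or 2. Of the 8 genes with a core, these 5 had a called difference of the MPP effects, and so did 5 of the 32 genes whose window held none (ULK1, WIPI1, SQSTM1, SCARB2 and GLA), with LAMP3 among the genes without a window. Over all genes tested, a difference was called for 16.6% of the 1497 with a core and 15.4% of the 11141 with a window and no core. The genes were divided by the core after their values were seen, and nothing is read from these counts. A match of these letters is a description of the sequence and does not show binding.

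Values are normalised read counts, that is, read counts per gene divided by a size factor for each library. A gene was called changed at a limma adjusted p under 0.05 over the 16984 genes tested, and log2 changes are given on the log2(value + 1) scale with their standard error after the ± sign. Reads in genes came to 24589435 to 46359070 per library, of which these 48 genes took 0.444% to 0.586%. The spread between the 4 libraries of a group was small for most of them, with a median coefficient of variation of 7.16% over the 192 combinations of gene and group, from 1.2% to 42.4%. Mean levels ran from 23.5 for CTSZ, the only one under 100, to 18836 for SQSTM1, and 38 of the 48 averaged at least 1000.

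MPP changed a similar share of these genes on the dish and in the scaffold, but in a different balance of directions. On the dish 11 rose and 9 fell (20 of 48, 41.7%), against 34.5% of all genes called (17.7% higher and 16.9% lower). In the scaffold 15 rose and 4 fell (19 of 48, 39.6%), against 34.6% of all genes (17.0% higher, 17.6% lower). The median log2 change of the 48 was -0.0529 on the dish and -0.00273 in the scaffold, beside 0.0204 and 0.00332 for all genes tested. The dish shares are near those of all genes in both directions. In the scaffold the members' share was above that of all genes for rises and below it for falls, and no test of these shares was run. Most changes were small: of the called genes, 8 on the dish and 1 in the scaffold moved by at least 1.5-fold.

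The culture comparison called more of these genes in untreated cells than with MPP. In untreated cells 12 were higher and 14 lower in the scaffold than on the dish (26 of 48, 54.2%), against 46.1% of all genes (23.2% higher, 23.0% lower). With MPP 11 were higher and 9 lower in the scaffold (20 of 48, 41.7%), against 38.9% of all genes (19.0% higher, 19.9% lower). The median log2 difference was -0.0125 without and 0.0735 with MPP, beside 0.0102 and 0.00877 for all genes. The change with MPP differed between the 2 cultures for 11 of the 48 (22.9%), against 15.3% of all genes: 9 had a more positive response in the scaffold, against 7.00% of all genes, and 2 a more negative one, against 8.32%. The 9 were ULK1, ATG3, LAMP1, LAMP3, MCOLN1, SCARB2, CTSA, CTSD and GLA, and the 2 were WIPI1 and SQSTM1. By role, the 9 held 4 of the 5 lysosomal membrane genes and 3 of the 8 lysosomal enzymes. They also held 1 of the 7 initiation genes, 1 of the 12 expansion genes and 0 of the 3 V-ATPase genes.

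The scaling of the libraries bears on the balance of directions under MPP. Mitochondrially encoded mRNAs took 7.72% to 11.6% of reads in untreated 2D libraries and 3.3% to 6.84% in untreated 3D, but 0.791% to 0.949% in MPP 2D and 1.04% to 1.52% in MPP 3D. With all libraries scaled to equal totals, the median of all genes moved to 0.124 on the dish and 0.0974 in the scaffold, and the members counted 15 higher and 5 lower on the dish and 16 higher and none lower in the scaffold. With equal totals computed without the mitochondrial genes, the counts were 11 and 11 on the dish, 16 and 2 in the scaffold, and 10 higher and 17 lower for untreated 3D against 2D. No called gene was called in the opposite direction under either scaling. The shares of all genes called under these scalings are not given here, so the balance of these counts cannot be set against that of all genes.

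The markers of the labelled cell type and of other cells moved with the groups. Of 9 dopamine and catecholamine markers 6 were in the table. The enzymes TH and DDC and the transporter SLC18A2 averaged 341 to 5585, 2301 to 14143 and 975 to 6007 over the groups, while the regulators NR4A2, PITX3 and LMX1B averaged 2.95 to 7.7, 38.6 to 76.8 and 31.7 to 67.1. The 6 summed to 4002 to 4268 in untreated 2D libraries, 3941 to 4265 in MPP 2D, 22017 to 24623 in untreated 3D and 12034 to 15173 in MPP 3D. The 8 noradrenergic neuroblastoma markers, led by DBH and PHOX2A, summed to 261792 to 288954 in untreated 2D, 245418 to 261622 in MPP 2D, 209516 to 241570 in untreated 3D and 162872 to 210805 in MPP 3D. The 11 markers of the mesenchymal neuroblastoma state summed to 22996 to 25221 in untreated 2D, 22909 to 25269 in MPP 2D, 18216 to 20593 in untreated 3D and 16226 to 17570 in MPP 3D, with PRRX1 at group means of 0 to 2.78. In that list CD44, an adhesion receptor, was lower in the scaffold by log2 -3.26 untreated and -2.97 with MPP. Of 8 markers of Schwann cells and glia, the sum ran from 3973 to 4289 in untreated 2D, 5705 to 6182 in untreated 3D, 6287 to 7777 in MPP 2D and 9554 to 15198 in MPP 3D, nearly all of it NGFR, with SOX10 averaging 0 to 1.82. The 6 macrophage markers in the table summed to 67.8 to 124 in untreated 2D, 81.0 to 117 in MPP 2D, 153 to 198 in untreated 3D and 95.4 to 195 in MPP 3D. PTPRC, ITGAM and TYROBP had group means of 0 to 5.05, SPI1 of 11.6 to 17.9 and CD14 of 42.0 to 55.2. CSF1R was higher in the scaffold, at 97.0 against 33.9 untreated (log2 1.48, limma adjusted p = 0.000144) and 79.0 against 33.8 with MPP (log2 1.22, limma adjusted p = 0.00125). The part of these shifts in the results below was not tested.

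**Figure D1:**
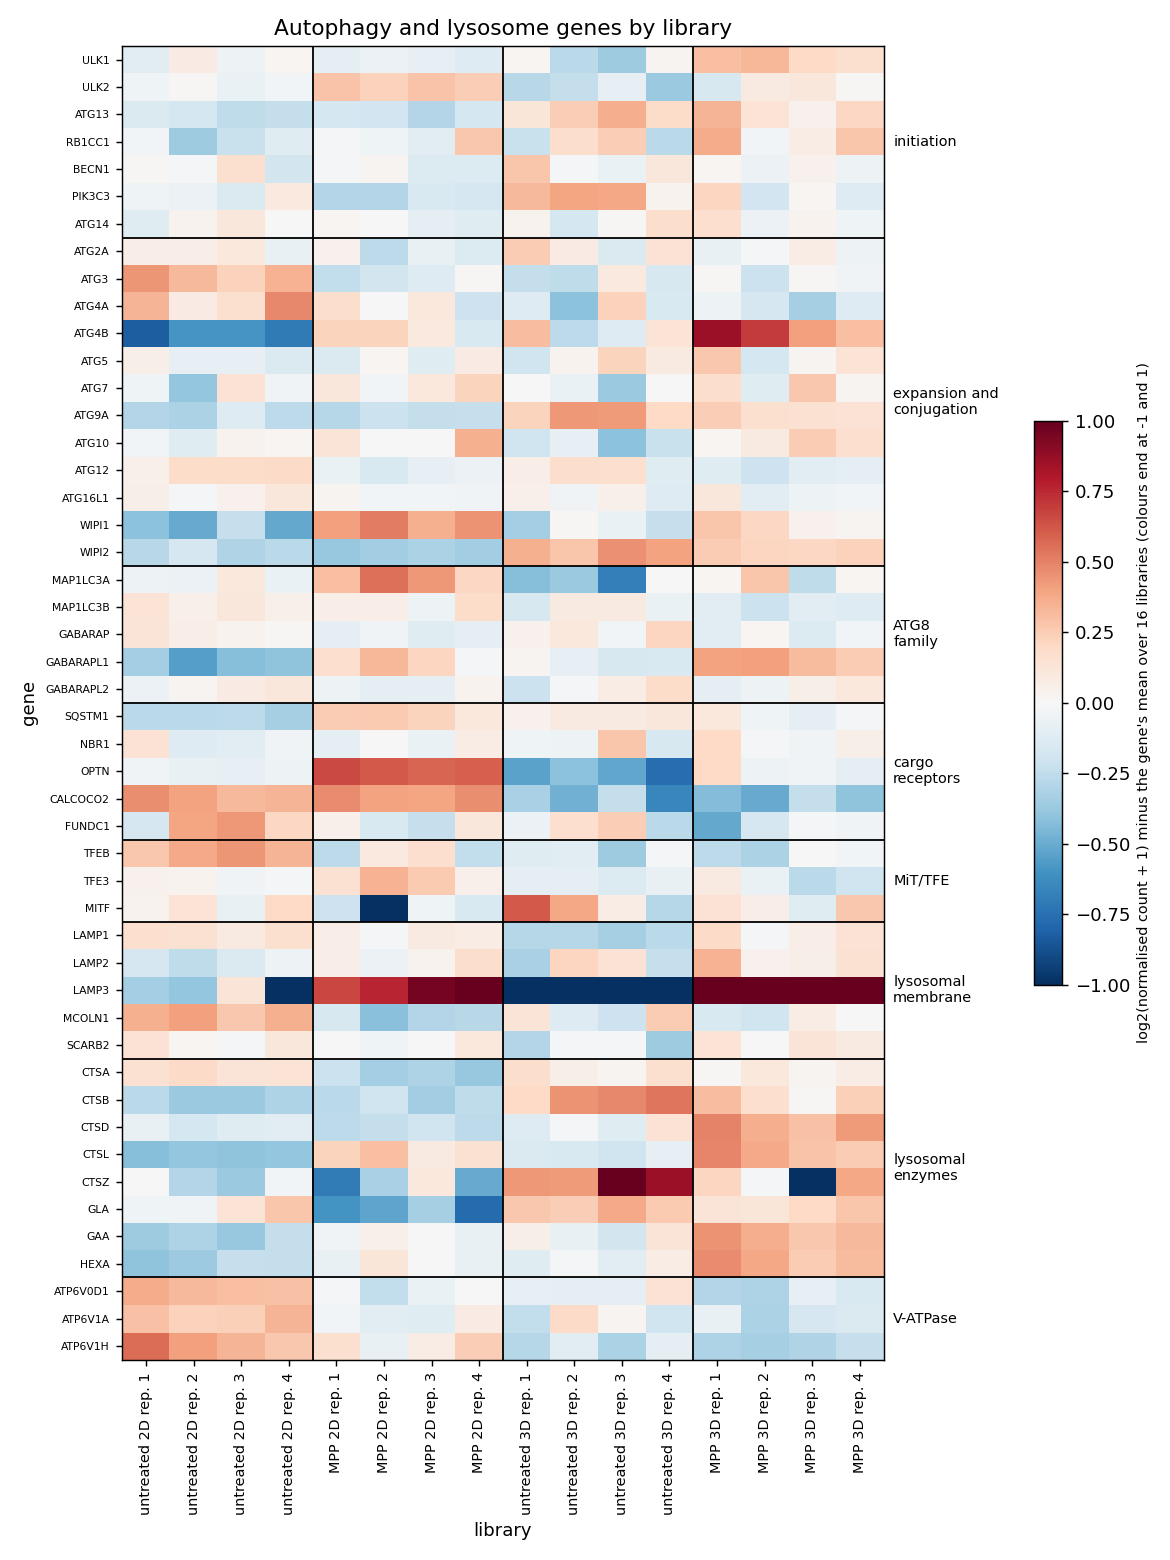
Normalised counts of the 48 genes (rows, by role) in the 16 libraries (columns), as log2(value + 1) minus each gene's mean over the libraries, with colours ending at -1 and 1. LAMP3 stands out with low values in the untreated scaffold and high values with MPP, the V-ATPase genes are high on the untreated dish, and CTSD, GAA and HEXA are high in the MPP scaffold.

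No transcription factor of the MiT/TFE family was called higher with MPP, and TFEB fell on the dish. TFEB, the best known activator of lysosomal genes, was highest in the untreated dish. Its normalised counts were 369, 386, 398 and 415 in untreated 2D and 254, 257, 327 and 343 in MPP 2D. The scaffold libraries had 239, 279.8, 284 and 301 untreated and 245, 255, 299 and 305 with MPP. Every untreated 2D library lay above every library of the other 3 groups, which overlapped one another. TFEB was 1.42-fold lower in the untreated scaffold than on the untreated dish (log2 -0.51 ± 0.13, limma adjusted p = 0.00352). It was 1.34-fold lower with MPP on the dish (log2 -0.42 ± 0.13, limma adjusted p = 0.0186). That second call was lost without untreated 2D replicate 3 (adjusted p = 0.0513), MPP 2D replicate 1 (0.0707) or MPP 2D replicate 4 (0.0627), and with equal library totals (0.0743). In the scaffold its log2 change with MPP was -0.0025 ± 0.13 (adjusted p = 0.991), and the difference of the effects missed the threshold (log2 0.42 ± 0.19, adjusted p = 0.15).

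TFE3, its close relative, was called in 1 comparison, lower in the scaffold than on the dish with MPP (log2 -0.31 ± 0.079, adjusted p = 0.0032). Its means were 2357 ± 65.3 in untreated 2D, 2709 ± 243 in MPP 2D, 2191 ± 41.1 in untreated 3D and 2184 ± 248 in MPP 3D (mean ± SD, n = 4, as for all means below). All MPP 2D libraries of TFE3 lay above the untreated 2D ones, yet the change missed the threshold (adjusted p = 0.0578). It passed without MPP 2D replicate 4 (adjusted p = 0.0253), with equal library totals (0.00519), by DESeq2 (0.0451) and with only the groups compared in the fit (0.0278). MITF, the member of the family known for pigment cells, averaged 105 to 154 and was not called in any comparison.

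Of the 7 genes that start autophagy, 1 rose and none fell with MPP on the dish, and 2 rose and 1 fell in the scaffold. Each role holds so few genes that its counts are a description only, to be read beside the shares of all genes given above (17.7% higher and 16.9% lower on the dish, 17.0% and 17.6% in the scaffold). ULK1, the kinase that receives the nutrient and energy signals, rose with MPP in the scaffold and was not called on the dish. Its normalised counts on the dish were 4429.7, 4623, 4866 and 5087 untreated and 4378, 4512, 4543 and 4616 with MPP. For the scaffold the counts were 3743, 3989, 4869.9 and 4892 untreated and 5375, 5525, 5913 and 6056 with MPP. The 4 MPP 3D libraries were above all 12 others, and the other groups overlapped. Untreated ULK1, lower on average in the scaffold, was called between the cultures with equal totals without mitochondrial genes (limma adjusted p = 0.0383). ULK1 rose 1.31-fold with MPP in the scaffold (log2 0.39 ± 0.0795, limma adjusted p = 0.000505), against a log2 change of -0.073 ± 0.0795 on the dish (adjusted p = 0.51). The difference of the effects was called (log2 0.47 ± 0.11, adjusted p = 0.00564), and with MPP the scaffold was higher than the dish (log2 0.34, adjusted p = 0.00171).

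ULK2, the second ULK kinase, rose with MPP in both cultures (log2 0.29 on the dish, adjusted p = 0.00253, and 0.26 in the scaffold, adjusted p = 0.00693) and was lower in the scaffold with and without MPP (log2 -0.25 and -0.21). The untreated culture call for ULK2 was lost without untreated 2D replicate 2 (adjusted p = 0.0505) or untreated 3D replicate 4 (0.061), and its rise in the scaffold with only the 2 groups in the fit (0.0503). ATG13, a scaffold protein of the ULK complex, was higher in 3D both untreated (log2 0.43 ± 0.0704) and with MPP (log2 0.39 ± 0.0704), with no overlap between the groups. RB1CC1, the complex's large subunit FIP200, was not called in any comparison.

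BECN1 (Beclin 1), the regulatory subunit of the phosphatidylinositol 3-kinase complex, did not pass the test anywhere. Its normalised counts were 1013, 1138, 1158 and 1286 in untreated 2D and 1045, 1047, 1140.3 and 1171 in MPP 2D. They were 1097, 1141, 1242 and 1392 in untreated 3D and 1101, 1105, 1165 and 1182 in MPP 3D. All 4 groups overlapped, and its log2 changes ran from -0.093 (MPP in 3D, adjusted p = 0.452) to 0.084 (untreated 3D against 2D, adjusted p = 0.466). ATG14, which directs that complex to the autophagosome site, also had no call.

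PIK3C3 (VPS34), the lipid kinase of the complex, was higher in the untreated scaffold than on the dish (1823 ± 203 against 1453 ± 101, log2 0.32 ± 0.0953, adjusted p = 0.00824). It fell with MPP in the scaffold (log2 -0.31 ± 0.0953, adjusted p = 0.0151). This fall was lost without untreated 3D replicate 2 (adjusted p = 0.0508), MPP 3D replicate 2 (0.0605) or MPP 3D replicate 4 (0.0527), and with equal library totals (0.0818). With MPP the excess in the scaffold was log2 0.21 (adjusted p = 0.0927, and 0.0458 without MPP 3D replicate 2).

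Of the 12 genes of phagophore expansion and conjugation, some were called between cultures, some with MPP and some in both. With MPP 2 rose and 2 fell on the dish, and 3 rose and 2 fell in the scaffold. In the untreated scaffold 4 were higher and 2 lower than on the dish, against 23.2% and 23.0% of all genes. Between the MPP groups 3 were higher and 1 lower in the scaffold, against 19.0% and 19.9%. WIPI1, which binds the lipid made by PIK3C3 and helps to recruit the conjugation machinery, had the second largest rise of the 48 with MPP on the dish. On the dish its normalised counts were 985, 992, 1059 and 1200.0 untreated and 1795, 1865, 1921 and 2009.6 with MPP. Scaffold values were 1112, 1201, 1340.3 and 1419.5 untreated and 1435, 1450.1, 1621 and 1704 with MPP. MPP libraries were above untreated ones in both cultures, and the MPP 2D libraries were the highest of all 16. WIPI1 rose 1.79-fold with MPP on the dish (log2 0.84 ± 0.0903, limma adjusted p = 2.59e-07) and 1.23-fold in the scaffold (log2 0.29 ± 0.0903, adjusted p = 0.0142), and the effect was smaller in the scaffold (difference of log2 changes -0.55 ± 0.13, adjusted p = 0.00433).

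Untreated, WIPI1 was higher in the scaffold than on the dish (log2 0.26, adjusted p = 0.0236), and with MPP it was lower (log2 -0.29, adjusted p = 0.0134). The rise in the scaffold was lost without untreated 3D replicate 1 (adjusted p = 0.0583) or MPP 3D replicate 1 (0.051). The untreated culture difference was lost without untreated 2D replicate 2 (0.0709) or 4 (0.0735) or untreated 3D replicate 2 (0.091) or 3 (0.0575). In the annotation 28.5% of WIPI1's exon bases lie in exons of ARSG on the other strand. The sources used here do not state whether reads were counted by strand, so reads of the 2 genes cannot be told apart there. A like limit holds for the other members that share exon bases with another gene (16 of the 48 in all), among them ATG9A (43.5%), ATG7 (32.2%), CTSA (29.6%), HEXA (23.7%) and BECN1 (23.5%). For ATG9A and MCOLN1 (8.41%), and in part for HEXA, GABARAP and CTSD, another gene lies on the same strand. Counting by strand would not separate the reads there.

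WIPI2, the paralogue that brings ATG16L1 to the membrane, was higher in the scaffold under both treatments. It was 5270.3 ± 219.9 on the untreated dish and 8149 ± 422 in the untreated scaffold (log2 0.63 ± 0.0563, limma adjusted p = 6.49e-09), and the excess with MPP was similar in size (log2 0.57 ± 0.0563, adjusted p = 3.97e-08). Its fall with MPP in the scaffold (log2 -0.15, adjusted p = 0.047) was lost on leaving out any of 7 of the 8 libraries (untreated 3D replicate 2 was the exception), with adjusted p between 0.0504 and 0.116. ATG9A, the lipid scramblase carried on the vesicles that seed the membrane, was likewise higher in the scaffold untreated (log2 0.57 ± 0.0721, adjusted p = 1.09e-06) and with MPP (log2 0.42 ± 0.0721, adjusted p = 8.26e-05).

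ATG3, the enzyme that transfers ATG8 proteins to their lipid, fell with MPP on the dish and was not called in the scaffold. Its normalised counts on the dish were 1295, 1379, 1400.4 and 1492 untreated and 927, 969, 1010.0 and 1109.6 with MPP. The scaffold libraries had 922, 934, 987 and 1177 untreated and 948, 1073, 1109 and 1109 with MPP. The untreated dish was above the libraries of every other group, and those 3 groups overlapped. ATG3 was 1.39-fold lower with MPP on the dish (log2 -0.47 ± 0.0916, limma adjusted p = 0.000371), while its change in the scaffold was log2 0.08 ± 0.0916 (adjusted p = 0.533). The difference of the effects was log2 0.55 ± 0.13 (adjusted p = 0.00462), and untreated cells had less ATG3 in the scaffold (log2 -0.47, adjusted p = 0.000207).

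ATG4B, the protease that primes ATG8 proteins, was called in all 4 two-group comparisons, always upward. It went from 3200.2 ± 244 on the untreated dish to 5509 ± 644 with MPP, and from 5236 ± 942 to 7675 ± 1371 in the scaffold. The MPP changes were log2 0.78 ± 0.12 on the dish (adjusted p = 3.45e-05) and 0.55 ± 0.12 in the scaffold (adjusted p = 0.00114), with no difference called between them (adjusted p = 0.423). Its paralogue ATG4A had 1 call, lower in the untreated scaffold (log2 -0.38, adjusted p = 0.0294), which was lost without untreated 2D replicate 1 (adjusted p = 0.0693) or 4 (0.103) or untreated 3D replicate 1 (0.0518), 2 (0.115) or 4 (0.0533).

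ATG10 and ATG12, the E2-like enzyme of the second conjugation system and the small protein it attaches to ATG5, moved in opposite directions with MPP in the scaffold. ATG10 rose with MPP in the scaffold (log2 0.36 ± 0.0947, adjusted p = 0.0051). It had a log2 change of 0.15 on the dish (adjusted p = 0.248). Its untreated culture difference of log2 -0.20 (adjusted p = 0.0818) passed without untreated 3D replicate 2 (adjusted p = 0.0481) and with equal totals without mitochondrial genes (0.0138). ATG12 was the only one of the 48 called lower with MPP in both cultures (log2 -0.24, adjusted p = 0.0109, and -0.21, adjusted p = 0.0267). Its scaffold call was lost without untreated 3D replicate 2 (adjusted p = 0.0894) or 3 (0.0739) or MPP 3D replicate 2 (0.0765), and both calls with equal library totals (0.139 on the dish and 0.235 in the scaffold). ATG5, ATG7, ATG16L1 and ATG2A, the conjugation partner of ATG12, the E1-like enzyme, the carrier of the ATG12-ATG5 conjugate and the lipid transfer protein, had no call in any comparison.

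In the ATG8 family, the proteins that coat the autophagosome membrane, MPP raised GABARAPL1 and MAP1LC3A and left the other 3 without a call. GABARAPL1 normalised counts on the dish were 1605, 1752, 1783 and 1865 untreated and 2323, 2649, 2733 and 2969 with MPP. For the scaffold the counts were 2107, 2121, 2229 and 2402 untreated and 2812, 2929, 3116 and 3129 with MPP. The MPP libraries were above the untreated libraries in each culture with no overlap, and the untreated dish was the lowest group. The rise was 1.52-fold on the dish (log2 0.60 ± 0.078, limma adjusted p = 3.34e-06) and 1.35-fold in the scaffold (log2 0.44 ± 0.078, adjusted p = 0.000147), with no difference called between them (adjusted p = 0.349). Untreated GABARAPL1 was also higher in the scaffold (log2 0.34, adjusted p = 0.00115). With MPP the difference missed the threshold (log2 0.17, adjusted p = 0.0872), and passed it without MPP 2D replicate 2 (0.0367).

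MAP1LC3B (LC3B), the family member most used as an autophagy marker, was called in 1 comparison. Its normalised counts were 7803, 7818, 8171 and 8280.3 in untreated 2D and 7273, 7889, 7915 and 8579 in MPP 2D. They were 6747, 7210.0, 8030.4 and 8046 in untreated 3D and 6488, 6909.6, 6983 and 7035 in MPP 3D. The MPP 3D libraries were below the MPP 2D ones, and the other pairs of groups compared overlapped. Untreated MAP1LC3B, lower on average in the scaffold, was called between the cultures with equal totals without mitochondrial genes (limma adjusted p = 0.0157). With MPP it was 1.15-fold lower in the scaffold (log2 -0.21 ± 0.0669, limma adjusted p = 0.0182), a call lost without MPP 2D replicate 4 (adjusted p = 0.0738) or MPP 3D replicate 2 (0.0582). Its log2 change with MPP was -0.021 ± 0.0669 on the dish (adjusted p = 0.842) and -0.13 ± 0.0669 in the scaffold (adjusted p = 0.145, and 0.0457 without untreated 3D replicate 1). MAP1LC3B and GABARAPL1 each have a near-identical copy in the genome, MAP1LC3B2 and GABARAPL3, so their counts are uncertain to the extent that reads were shared.

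MAP1LC3A (LC3A) rose with MPP by log2 0.39 ± 0.12 on the dish (adjusted p = 0.0115) and 0.39 ± 0.12 in the scaffold (adjusted p = 0.0122), and was lower in the scaffold by log2 -0.35 untreated and -0.36 with MPP. Its rise in the scaffold was lost without untreated 3D replicate 3 (adjusted p = 0.0531) or MPP 3D replicate 2 (0.0563). The untreated culture call was lost without untreated 2D replicate 3 (0.0533) or untreated 3D replicate 3 (0.0731), and the call with MPP without MPP 2D replicate 2 (0.0676) or MPP 3D replicate 3 (0.0797).

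GABARAP and GABARAPL2 had no call in the comparisons as fitted. GABARAP's log2 change with MPP was -0.14 on the dish (adjusted p = 0.0794) and -0.15 in the scaffold (adjusted p = 0.0659). The former passed with equal totals without mitochondrial genes (0.0184) and with only the groups compared (0.0187). The latter passed without untreated 3D replicate 3 (0.024) or MPP 3D replicate 2 (0.0468). Per kilobase of exon, the order of levels within the family was the same in all 4 groups: GABARAP, GABARAPL2, MAP1LC3B, MAP1LC3A, GABARAPL1. In untreated 2D the levels per kilobase were 3852 ± 134, 2937 ± 149, 2658 ± 80.8, 1762 ± 102 and 586 ± 36.3. GABARAPL2 and MAP1LC3B did not differ beyond their spread in 3 groups (MPP 3D was the exception), nor did MAP1LC3B and MAP1LC3A in the 2 MPP groups. Because 55.7% of GABARAP's exon bases lie in exons of other genes, its place in this order is uncertain.

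The cargo receptors divided into OPTN and SQSTM1, which rose with MPP on the dish, and CALCOCO2, which was called only between culture formats. With MPP 2 of the 5 rose on the dish and 1 in the scaffold, and none fell. SQSTM1 (p62), which links ubiquitin-tagged proteins to ATG8 proteins, had its lowest counts on the untreated dish. On the dish its normalised counts were 14829.7, 15458, 15501 and 15605 untreated and 20120.2, 21823, 22249 and 22440.5 with MPP. In the scaffold they were 19232, 19857, 19877 and 20201 untreated and 17513, 18094, 18522 and 20056 with MPP. All untreated 2D libraries were below all 12 others, and in the scaffold the 2 groups overlapped. SQSTM1 rose 1.41-fold with MPP on the dish (log2 0.50 ± 0.0582, limma adjusted p = 9.31e-07), while its change in the scaffold was log2 -0.10 ± 0.0582 (adjusted p = 0.217).

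The difference of the MPP effects on SQSTM1 was log2 -0.59 ± 0.0823, with the smallest adjusted p of the 48 genes (limma adjusted p = 1.86e-05). The culture difference changed sign with treatment: SQSTM1 was higher in the scaffold untreated (log2 0.37, adjusted p = 2.17e-05) and lower with MPP (log2 -0.22, adjusted p = 0.00399). Of its exon bases, 39.8% lie in exons of MRNIP on the other strand, with the same limit as for WIPI1.

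OPTN (optineurin), a receptor used in the removal of damaged mitochondria, rose with MPP from 3091 ± 48.5 to 4927 ± 109 on the dish and from 2197 ± 215 to 3239 ± 307 in the scaffold. These were log2 changes of 0.67 ± 0.0747 (adjusted p = 4.36e-07) and 0.56 ± 0.0747 (adjusted p = 4.43e-06), with no difference called between them (adjusted p = 0.537). OPTN was lower in the scaffold both untreated and with MPP (log2 -0.50 and -0.61), without overlap of the groups. CALCOCO2 (NDP52), which recognises invading bacteria and damaged mitochondria, was 1.75-fold lower in the untreated scaffold (log2 -0.81 ± 0.0852, adjusted p = 8.15e-08) and 1.77-fold lower with MPP (log2 -0.83 ± 0.0852, adjusted p = 8.62e-08), and its MPP changes were log2 0.05 and 0.03. NBR1, a receptor related to SQSTM1, and FUNDC1, a receptor on the mitochondrial outer membrane, had no call. FUNDC1's change with MPP on the dish (log2 -0.27, adjusted p = 0.161) passed without untreated 2D replicate 1 (adjusted p = 0.0442).

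**Figure D2:**
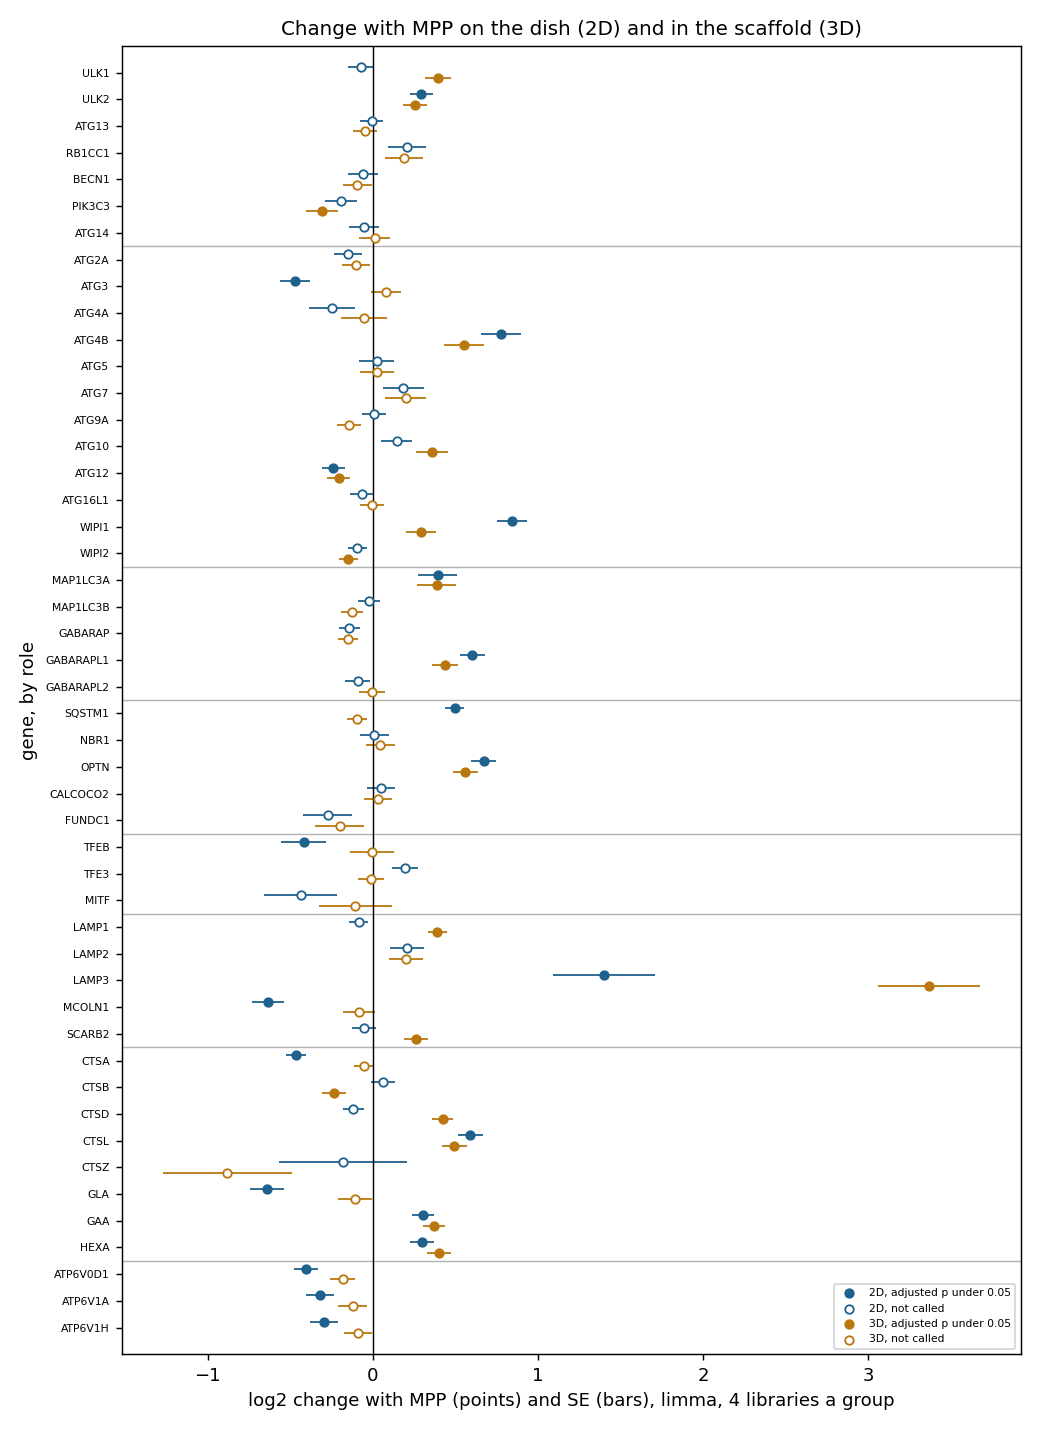
Log2 change with MPP for each of the 48 genes (rows, by role) on the dish (blue) and in the scaffold (brown), with the SE as bars and filled points where the limma adjusted p was under 0.05, 4 libraries a group. LAMP3 lies far to the right in both cultures at 1.40 and 3.37, and most lysosomal membrane genes have the brown point to the right of the blue one.

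Of the 5 lysosomal membrane protein genes, 4 were lower in the scaffold than on the dish in untreated cells and none higher, against 23.0% and 23.2% of all genes. LAMP2 was the exception (log2 0.10, not called). With MPP none of the 5 was called in either direction between the cultures. In the test of the MPP effects against each other, 4 of the 5 had a more positive response in the scaffold and none a more negative one, against 7.00% and 8.32% of all genes. With MPP 1 rose and 1 fell on the dish, and 3 rose and none fell in the scaffold. The median log2 change of the 5 in the scaffold was 0.262, beside 0.00332 for all genes.

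LAMP3 (DC-LAMP), an inducible member of the family (chr3:183122213-183163839, minus strand, GRCh38), showed the largest change of the 48. Its normalised counts on the dish were 27.5, 61.7, 63.8 and 88.7 untreated and 129, 137, 158 and 174 with MPP. The scaffold libraries had 11.9, 21.1, 28.1 and 30.5 untreated and 193, 217, 251 and 278 with MPP. Each MPP library was above each untreated library of both cultures, and the MPP 3D libraries were the highest of all. LAMP3 rose 2.64-fold on the dish (log2 1.40 ± 0.31, limma adjusted p = 0.00123) and 10.3-fold in the scaffold (log2 3.37 ± 0.31, adjusted p = 1.9e-08). The effect was larger in the scaffold (difference of log2 changes 1.97 ± 0.44, adjusted p = 0.00294).

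Untreated, LAMP3 was lower in the scaffold (log2 -1.33 ± 0.31, adjusted p = 0.00124), with 1 dish library within the scaffold's range. With MPP the groups did not overlap and the scaffold was higher by log2 0.64, which missed the threshold (adjusted p = 0.106). It passed by edgeR's quasi-likelihood test (0.0415), by DESeq2 (0.0259) and with only the groups compared in the fit (0.00723).

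LAMP1, one of the most abundant proteins of the lysosomal membrane, was lowest in the untreated scaffold. On the dish its normalised counts were 9249.7, 9668, 9717 and 9798 untreated and 8662, 9116, 9197 and 9272 with MPP. For the scaffold the counts were 6908, 7139, 7159.7 and 7225 untreated and 8648, 9121, 9627 and 9929 with MPP. The untreated 3D libraries were below all 12 others, which overlapped between groups. LAMP1 was 1.35-fold lower in the untreated scaffold than on the dish (log2 -0.43 ± 0.0567, limma adjusted p = 1.74e-06) and rose 1.31-fold with MPP in the scaffold (log2 0.39 ± 0.0567, adjusted p = 1.34e-05). On the dish its change was log2 -0.085 ± 0.0567 (adjusted p = 0.264), and the difference of the effects was log2 0.48 ± 0.0802 (adjusted p = 0.000187). The promoter window of LAMP1 held 6 E-box cores, and a link between them and its response to MPP was not tested.

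LAMP2, the membrane protein whose A form takes in single proteins for breakdown, had no call. Its normalised counts were 2861, 3023, 3080.1 and 3293 in untreated 2D and 3269.9, 3482, 3564 and 3849.6 in MPP 2D. They were 2719, 2898, 3761 and 3951 in untreated 3D and 3509.5, 3548, 3787 and 4336 in MPP 3D. All pairs of groups compared overlapped. The change with MPP was log2 0.21 ± 0.10 on the dish (adjusted p = 0.117) and 0.20 ± 0.10 in the scaffold (adjusted p = 0.131). It passed with equal library totals (0.0178 and 0.0237) and, in the scaffold, without untreated 3D replicate 2 (0.0317). The table does not separate its isoforms.

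MCOLN1, the lysosomal calcium channel TRPML1, fell with MPP on the dish. Its normalised counts there were 1609.9, 1714, 1715 and 1780.5 untreated and 1001, 1089, 1103 and 1196 with MPP. Scaffold values were 1158, 1222, 1463 and 1591 untreated and 1163, 1200.0, 1331 and 1408 with MPP. The untreated dish was the highest group with no overlap, and the 2 scaffold groups overlapped. MCOLN1 was 1.55-fold lower with MPP on the dish (log2 -0.64 ± 0.0967, limma adjusted p = 2.55e-05), with log2 -0.083 ± 0.0967 in the scaffold (adjusted p = 0.541) and a difference of log2 0.55 ± 0.14 (adjusted p = 0.00684). Untreated it was lower in the scaffold (log2 -0.34, adjusted p = 0.00654).

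SCARB2 (LIMP-2), a transport receptor and membrane protein of the lysosome, rose with MPP in the scaffold from 12124 ± 1505 to 14461 ± 613 (log2 0.26 ± 0.0746, adjusted p = 0.0089), against 14241 ± 750.5 and 13732 ± 629 on the dish. It was lower in the untreated scaffold than on the dish (log2 -0.24, adjusted p = 0.0118), a call lost without untreated 3D replicate 4 (adjusted p = 0.0504). The difference of the MPP effects on SCARB2 was at the edge of the threshold (log2 0.31 ± 0.11, adjusted p = 0.0474). It was lost on leaving out any of 11 of the 16 libraries, with adjusted p between 0.0589 and 0.0974; the calls that remained were without untreated 2D replicate 3, untreated 3D replicate 2 or 3, MPP 2D replicate 4 or MPP 3D replicate 2.

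Of the 8 lysosomal enzymes, those called between the cultures were all higher in the scaffold. In the list of other hydrolases given below, the calls between untreated cultures went both ways. Untreated, 4 of the 8 were called higher there and none lower, against 23.2% and 23.0% of all genes, and CTSA (log2 -0.044), CTSD (0.094), GLA (0.20) and CTSZ (0.88) were not called. With MPP 6 were called higher and none lower, against 19.0% and 19.9% of all genes (median log2 0.368, beside 0.00877 for all genes), and CTSL (log2 0.16) and CTSZ (0.18) were not called. In the MPP comparisons 3 rose and 2 fell on the dish, and 4 rose and 1 fell in the scaffold. The summed Schwann cell and glia markers, nearly all of it NGFR, were also highest in MPP 3D (9554 to 15198), and their part in the enzyme values was not tested. In bulk RNA, fewer cells of a type and less RNA per cell cannot be told apart.

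CTSD (cathepsin D), the main aspartic protease of the lysosome, was highest with MPP in the scaffold. Its normalised counts on the dish were 10321, 10709.7, 10789 and 11081 untreated and 9729, 9759, 9886 and 10151 with MPP. The scaffold libraries had 10662, 10719, 11600.5 and 12924 untreated and 14332, 15007, 15655 and 16467 with MPP. The MPP 3D libraries were above all 12 others. The untreated groups overlapped, and on the dish the MPP libraries lay below the untreated ones. CTSD rose 1.34-fold with MPP in the scaffold (log2 0.42 ± 0.0649, limma adjusted p = 2.59e-05) and had a log2 change of -0.12 ± 0.0649 on the dish (adjusted p = 0.168), a difference of log2 0.54 ± 0.0918 (adjusted p = 0.000198). With MPP it was 1.55-fold higher in the scaffold than on the dish (log2 0.64, adjusted p = 7.58e-08).

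The CTSD change on the dish passed as a fall with only the 2 groups in the fit (adjusted p = 0.0338) and with equal totals without mitochondrial genes (0.0388). Of CTSD's exon bases 54.9% lie in exons of other annotated genes, so its counts depend on how shared reads were assigned.

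CTSB (cathepsin B), a cysteine protease, followed the culture format. On the dish its normalised counts were 11317, 11341, 11847 and 12134 untreated and 11521, 12163, 12285 and 12740.2 with MPP. For the scaffold the counts were 16775, 20013, 20469 and 21194 untreated and 14728, 16468, 17311 and 18141 with MPP. All 8 scaffold libraries were above all 8 dish libraries, and treated and untreated libraries overlapped in both cultures. CTSB was 1.68-fold higher in the untreated scaffold (log2 0.75 ± 0.0742, limma adjusted p = 3.28e-08) and 1.36-fold higher with MPP (log2 0.45 ± 0.0742, adjusted p = 4.87e-05). It fell with MPP in the scaffold (log2 -0.23 ± 0.0742, adjusted p = 0.0174), a call lost without untreated 3D replicate 4 (adjusted p = 0.0552) or MPP 3D replicate 3 (0.0754) and with equal library totals (0.144).

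On the dish CTSB had a log2 change of 0.062 with MPP (adjusted p = 0.549). The difference of the MPP effects on CTSB was log2 -0.30 ± 0.10 (adjusted p = 0.0603). It passed without untreated 3D replicate 1 (adjusted p = 0.00961) or MPP 3D replicate 1 (0.0322), by DESeq2 (0.0428) and with equal library totals (0.0491).

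CTSA, the protective protein of the sialidase complex, and GLA, the alpha-galactosidase lacking in Fabry disease, fell with MPP on the dish and were not called in the scaffold. CTSA went from 3589 ± 67.5 to 2606 ± 125 on the dish (log2 -0.46 ± 0.0608, limma adjusted p = 4.25e-06) and from 3484 ± 179.8 to 3356 ± 96.8 in the scaffold (adjusted p = 0.537). The difference of its effects was log2 0.41 ± 0.086 (adjusted p = 0.00178). GLA went from 661 ± 71.4 to 424 ± 53.2 on the dish (log2 -0.64 ± 0.10, adjusted p = 5.68e-05) and from 758 ± 33.9 to 704 ± 35.3 in the scaffold (adjusted p = 0.455). The difference for GLA was log2 0.53 ± 0.15 (adjusted p = 0.0154). With MPP both were higher in the scaffold than on the dish, by log2 0.37 and 0.74.

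CTSL, GAA and HEXA, which are cathepsin L, the acid alpha-glucosidase and the alpha subunit of beta-hexosaminidase, rose with MPP in both cultures. CTSL rose by log2 0.59 ± 0.0736 on the dish and 0.49 ± 0.0736 in the scaffold, with no overlap between treated and untreated libraries. GAA rose by log2 0.30 and 0.37, and HEXA by log2 0.30 and 0.40. GAA and HEXA were also higher in the scaffold under both treatments, by log2 0.30 to 0.37 and 0.27 to 0.37, and for these 2 genes every untreated dish library was below every MPP scaffold library. Untreated CTSL was higher in the scaffold (log2 0.26, adjusted p = 0.00643, and 0.0649 with equal totals without mitochondrial genes). CTSL has near-identical copies in the genome, which makes its counts uncertain. CTSZ (cathepsin X) was barely expressed, with group means of 17.1 to 36.7, and had no call. Its untreated difference of log2 0.88 (adjusted p = 0.0687), with no overlap, passed with a pseudocount of 5 (0.0461) and by DESeq2 (0.0472).

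**Figure D3:**
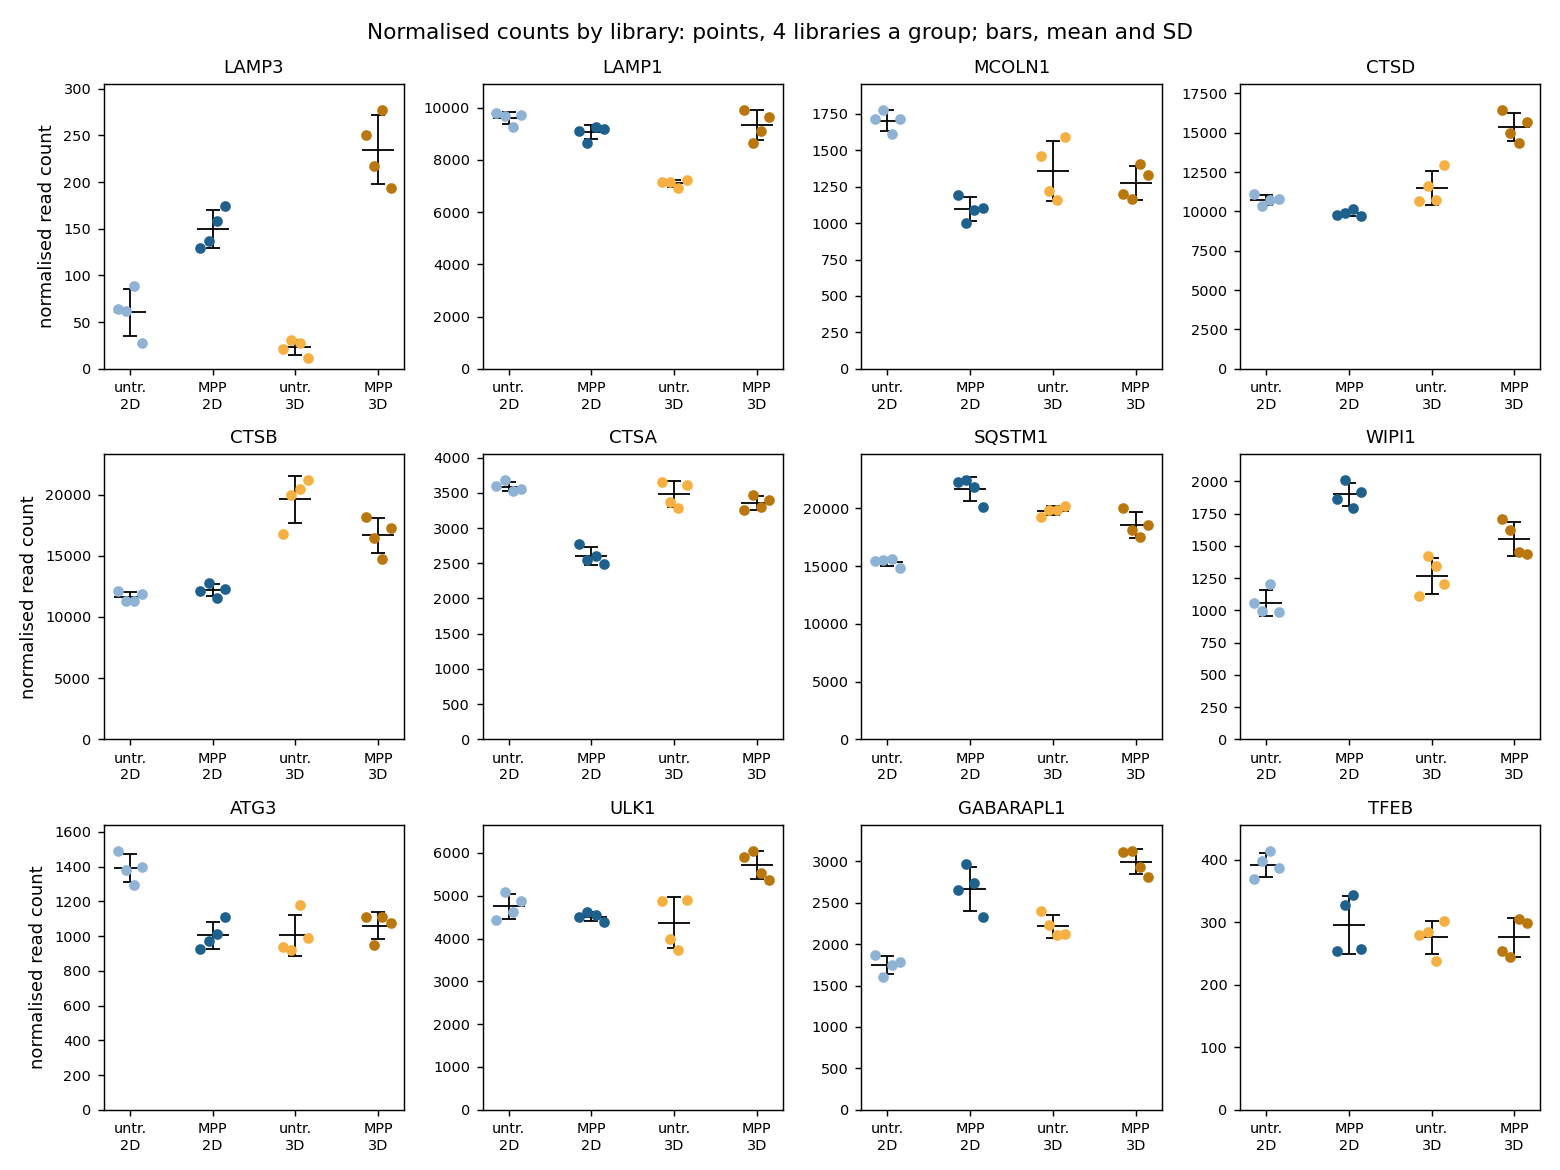
Normalised read counts of 12 genes in each library (points; 4 libraries a group) with the group mean and SD (bars), axes from 0. In LAMP1, ULK1 and CTSD the MPP 3D group lies above untreated 3D while the 2 dish groups lie close together, and in SQSTM1 and WIPI1 the dish shows the larger step.

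The 3 V-ATPase genes were highest on the untreated dish. All 3 fell with MPP on the dish, against 16.9% of all genes, and all 3 were lower in the untreated scaffold, against 23.0%. The other subunits of the pump, given below, did not share this balance between untreated cultures. ATP6V0D1, a subunit of the membrane part of the pump, went from 3861 ± 94.9 to 2923 ± 222 with MPP on the dish (log2 -0.40 ± 0.0748, adjusted p = 0.000229). ATP6V1A, the catalytic subunit that splits ATP, changed there by log2 -0.32 ± 0.0859 (adjusted p = 0.00629), and ATP6V1H, a regulatory subunit, by log2 -0.29 ± 0.0828 (adjusted p = 0.00843). With equal library totals the falls of ATP6V1A and ATP6V1H missed the threshold (adjusted p = 0.053 and 0.0752).

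In the untreated scaffold these 3 subunits differed from the dish by log2 -0.35, -0.33 and -0.60, in the same order. With MPP in the scaffold none was called, with log2 changes of -0.18, -0.12 and -0.09. ATP6V0D1's change there (adjusted p = 0.0643) passed without MPP 3D replicate 3 (adjusted p = 0.0313). ATP6V1H stayed lower in the scaffold than on the dish with MPP (log2 -0.39, adjusted p = 0.000627). No difference of the MPP effects was called among the 3, although each was positive, from log2 0.20 to 0.22. That of ATP6V0D1 passed with equal totals without mitochondrial genes (0.0305).

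**Figure D4:**
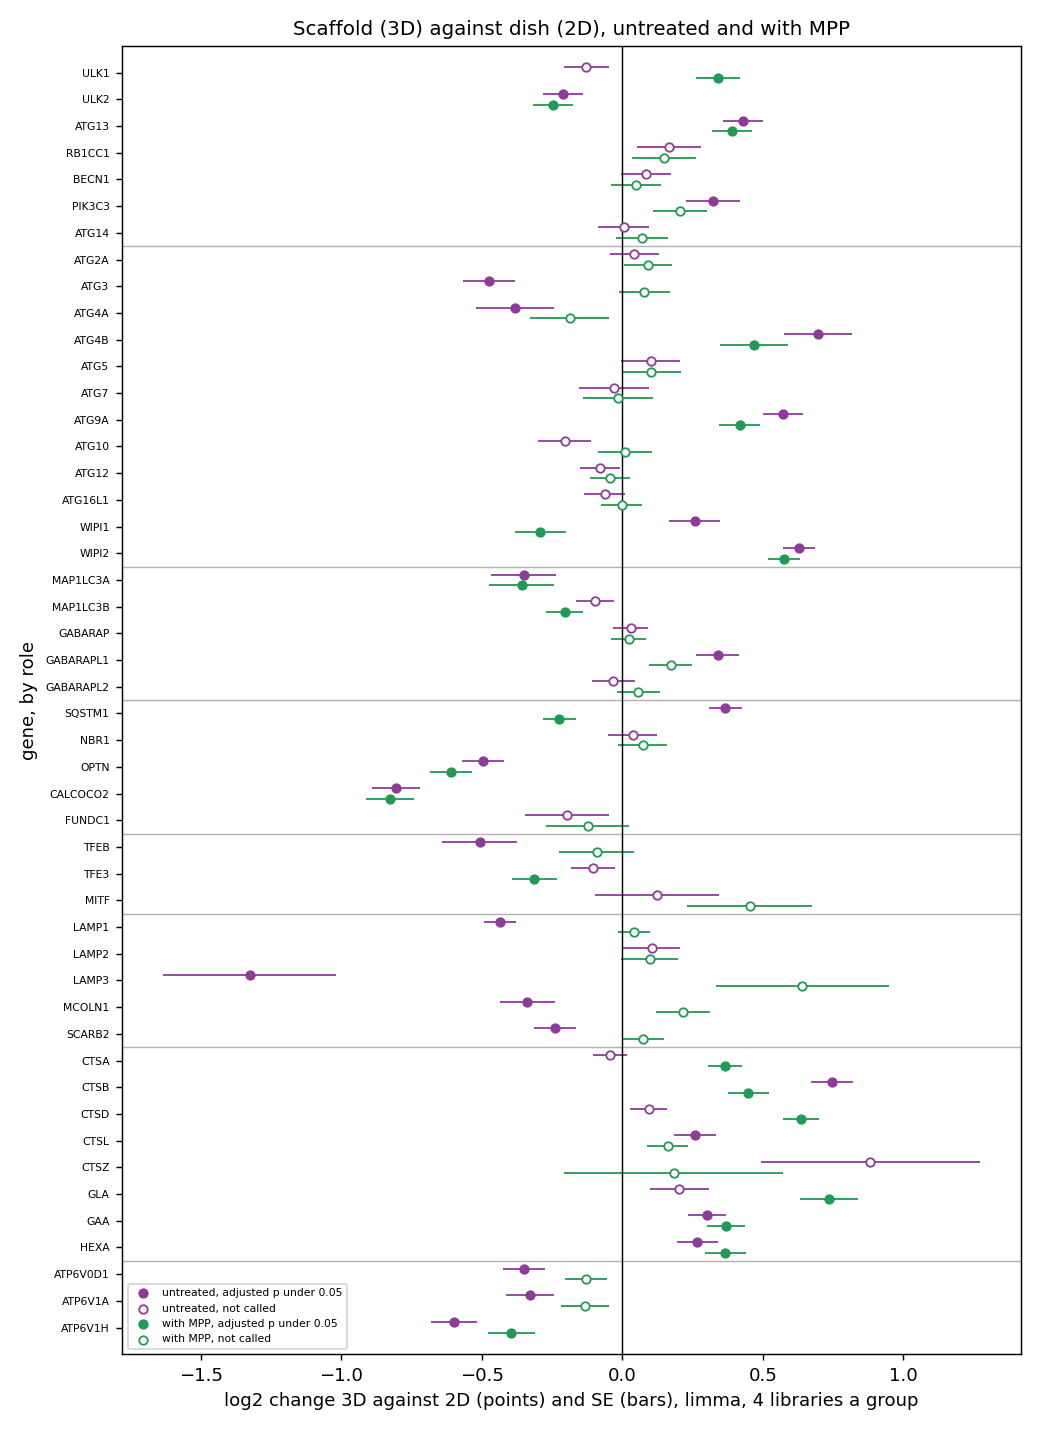
Log2 difference between scaffold and dish for each of the 48 genes (rows, by role) in untreated cells (purple) and with MPP (green), with the SE as bars and filled points where the limma adjusted p was under 0.05, 4 libraries a group. CALCOCO2 and OPTN lie on the left and WIPI2, ATG9A and CTSB on the right in both, and the points of SQSTM1 and WIPI1 lie on opposite sides of 0.

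The MPP comparisons on the dish and in the scaffold share no libraries, so their calls can be set against each other. Of the 11 genes that rose on the dish, 10 also rose in the scaffold: ULK2, ATG4B, WIPI1, MAP1LC3A, GABARAPL1, OPTN, LAMP3, CTSL, GAA and HEXA. That is 90.9% of the dish list and 66.7% of the scaffold list of 15. Over all genes tested the shared rises were 45.9% of the dish list and 47.7% of the scaffold list. Of the 9 that fell on the dish, only ATG12 also fell in the scaffold, which is 11.1% of the dish list and 25% of the scaffold list of 4, beside 46.3% and 44.3% over all genes. None of the 48 was called in opposite directions. These shares were not tested against those of all genes. The shared rises included a receptor, ATG8 proteins, a protease of the conjugation system and hydrolases. The falls on the dish other than ATG12, among them MCOLN1, CTSA, GLA and the V-ATPase subunits, were not called in the scaffold. For the V-ATPase subunits and TFEB the difference of the MPP effects was not called either.

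The untreated and the MPP comparisons of scaffold and dish share no libraries either, but they too share the estimate of each gene's spread. Both called ATG13, ATG4B, ATG9A, WIPI2, CTSB, GAA and HEXA higher in the scaffold (7 genes, 58.3% of 12 and 63.6% of 11, beside 47.8% and 58.1% over all genes). Both called ULK2, MAP1LC3A, OPTN, CALCOCO2 and ATP6V1H lower (5 genes, 35.7% of 14 and 55.6% of 9, beside 55% and 63.3% over all genes), and WIPI1 and SQSTM1 were called in opposite directions. In all, 34 of the 48 genes were called in at least 1 of the 4 two-group comparisons. The 14 without a call were RB1CC1, BECN1, ATG14, ATG2A, ATG5, ATG7, ATG16L1, GABARAP, GABARAPL2, NBR1, FUNDC1, MITF, LAMP2 and CTSZ. Leaving aside the weakly expressed CTSZ and MITF, their log2 changes lay between -0.27 and 0.21.

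Other genes of the pathway were described from 6 lists drawn up by function. The genes named from them are among the highest and lowest called ones of a comparison, so they were picked by how they moved. With MPP 17.7% of all genes rose and 16.9% fell on the dish, and 17.0% rose and 17.6% fell in the scaffold, and the counts of each list are given beside these shares with no test. In the list of other lysosomal hydrolases and their activators, 34 of 36 genes were tested. With MPP 9 rose and 7 fell on the dish, while 14 rose and none fell in the scaffold (median log2 0.201). Between untreated cultures 10 were higher and 10 lower in the scaffold, against 23.2% and 23.0% of all genes. Between the MPP groups 15 were higher and 3 lower in the scaffold, against 19.0% and 19.9% of all genes. NAGLU, which removes N-acetylglucosamine from heparan sulfate, went from 866 ± 208 to 1444 ± 154 with MPP in the scaffold (limma adjusted p = 6.66e-05). On the dish IDUA, which acts on heparan and dermatan sulfate, rose from 1194 ± 198 to 2345 ± 126 (adjusted p = 6.16e-05), whereas CTSV (cathepsin V) fell from 386 ± 40.3 to 169 ± 15.0 (adjusted p = 3.77e-05). A difference of the MPP effects was called for 6 of the 34, with 4 more positive and 2 more negative in the scaffold, against 7.00% and 8.32% of all genes. The MPP effects on CTSV differed between the cultures by log2 1.61 (adjusted p = 0.000127).

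Among other lysosomal membrane and transport proteins, 20 of 22 were tested. Untreated, 3 were higher and 8 lower in the scaffold, against 23.2% and 23.0% of all genes, and with MPP 3 rose and 4 fell on the dish and 6 rose and 1 fell in the scaffold. NPC2, which hands cholesterol to NPC1, was lower in the untreated scaffold (log2 -0.66, adjusted p = 2.19e-06) and rose with MPP in both cultures (log2 0.53 and 0.74). Of the 20, 2 had a called, more positive MPP response in the scaffold and 0 a more negative one, against 7.00% and 8.32% of all genes. LAPTM4A, a small lysosomal membrane protein and 1 of these 2, fell with MPP on the dish (log2 -0.42), and its MPP effects differed by log2 0.69 (adjusted p = 4.18e-06).

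For the other V-ATPase subunits, 18 of 20 were tested, and 1 rose and 5 fell with MPP on the dish and 3 rose and 5 fell in the scaffold. Between untreated cultures 4 were higher and 1 lower in the scaffold, against 23.2% and 23.0% of all genes. Between the MPP groups 7 were higher and 2 lower there, against 19.0% and 19.9%. ATP6V0A4, the isoform of the a subunit known from kidney, was 167 ± 9.08 on the untreated dish and 3122 ± 378 in the untreated scaffold (log2 4.21, adjusted p = 7.68e-15). With MPP it fell to 674 ± 33.2 in the scaffold (log2 -2.20, adjusted p = 1.47e-09), more than any of the 3 subunits above moved.

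Genes that sense nutrients upstream of autophagy included some larger changes. Of 27 genes of MTORC1 and lysosomal nutrient sensing, 3 rose and 4 fell with MPP on the dish and 9 rose and 6 fell in the scaffold. SESN2, a stress-induced inhibitor of MTORC1, rose with MPP by log2 1.57 on the dish and 0.89 in the scaffold. DDIT4 (REDD1), which inhibits MTORC1 in low oxygen, was 815 ± 69.7 on the untreated dish and 5143 ± 435 in the untreated scaffold (log2 2.66, adjusted p = 1.32e-16), and its MPP effects differed by log2 -1.62 (adjusted p = 2.77e-09). MTOR, the kinase that restrains ULK1 and TFEB, fell with MPP on the dish (log2 -0.38, adjusted p = 0.00118), and its effects differed between the cultures (log2 0.63, adjusted p = 0.000521).

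Of 14 other cargo and mitophagy receptors, 3 rose and 4 fell with MPP on the dish and 2 rose and 5 fell in the scaffold. BNIP3, a mitophagy receptor induced by low oxygen, was 3397 ± 214 on the untreated dish and 8602 ± 739 in the untreated scaffold, and fell to 3303 ± 176 with MPP there (log2 -1.38, adjusted p = 1.07e-12). PINK1, a kinase that marks damaged mitochondria for removal, rose with MPP in the scaffold (log2 0.30, adjusted p = 0.0154). Of 25 tested genes of the remaining autophagy machinery, 3 rose and 1 fell with MPP on the dish and 4 rose and 1 fell in the scaffold. MAP1LC3C, a further LC3 gene, rose in both cultures (log2 0.84 and 1.09), and SNAP29, which helps autophagosomes fuse with lysosomes, fell in both (log2 -0.25 and -0.41).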

How the data were processed

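RNA was measured by poly-A sequencing in 16 libraries, 4 in each of 4 groups. The deposited table gives 1 normalised read count per gene and library. The submitters' processing notes name STAR, featureCounts and DESeq2 beside CASAVA 1.8.2 and FastQC, and the build GRCh38.p13. For the annotation, strand setting and parameters, the notes used here hold no statement. Per the labels' protocols, RNA was purified on poly-T beads and libraries were made with the NEBNext Ultra RNA kit. The values in the authors' table are a signal, namely read counts divided by a size factor per library: dividing each column by the worth of 1 read gave whole reads for 100% of values (within 0.01 of a read). Genes in the table had at least 11 reads over the 16 libraries, and the depth of 24589435 to 46359070 reads sets the counting error.

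Groups were taken from the labels. Genes with a value of at least 10 in at least 4 libraries were tested (16984 of 19898). Values were analysed as log2(value + 1) with limma 3.58.1 in R 4.3.3, with empirical Bayes moderation and a mean-variance trend, all 4 groups in 1 fit (12 residual degrees of freedom), and Benjamini-Hochberg adjustment over all genes tested, separately for each of 5 comparisons. The comparisons were MPP against untreated in each culture, 3D against 2D within each treatment, and the difference of the MPP effects. On this scale the fold of a weakly expressed gene can come out too small. Levels per kilobase used the union of exons in GENCODE v29. The script was tested on simulated data.

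Alternatives were a pseudocount of 0.5 or of 5, testing without the filter, testing genes that averaged at least 50, equal library totals with and without mitochondrial genes, edgeR 4.0.16 and DESeq2 1.42.0 on the recovered reads, only the groups compared, a replicate block, a minimum of 1.5-fold, and each library left out in turn. No 2 libraries of a group agreed within sampling noise (chi-square per degree of freedom of at least 6.07 over 24 pairs), so all were kept.

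The genes described, their roles, the pathway and marker lists and the tests were chosen with earlier results of these data known. Per-library values were given for a set of core genes of each role and for the 5 largest called differences, and others by counts, ranges or means. From the pathway lists, genes were taken from up to 2 highest and 2 lowest called genes with a mean of at least 50 per comparison. Of the listed genes, 11 were not in the table, and 1 was matched by another symbol. Some genes of the pathway lists are not reported here. ATG8 protein sequences and sequences of chromosome 8 genes were not used here.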

Additional observations from a re-analysis of the deposited data

Results flagged for a closer look

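Among the 192 combinations of gene and group, 8 had 1 library far from the other 3, by the gap to the nearest library against the range of the group. Chance flags about 1 group in 20, about as many as were found. The low values were ATG13 in MPP 2D replicate 3 (2981, others 3206 to 3239), ATG7 in untreated 3D replicate 3 (397.2, others 492 to 513.1), ATG12 in untreated 2D replicate 1 (2774, others 3043 to 3058) and MITF in MPP 2D replicate 2 (62.88, others 113.1 to 126.9). The high values were ATG9A in MPP 3D replicate 1 (2234, others 2082 to 2103), ATG16L1 in MPP 2D replicate 1 (1370, others 1317 to 1321), MAP1LC3A in untreated 2D replicate 3 (3373, others 2997 to 3040) and ATP6V0D1 in untreated 3D replicate 4 (3408, others 2898 to 2920). They came from 8 of the 16 libraries.

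For 11 genes the test of the difference itself found that the log2 change with MPP was not the same on the dish and in the scaffold. The difference, scaffold minus dish, was positive for LAMP3 (1.97, limma adjusted p = 0.00294), MCOLN1 (0.554, adjusted p = 0.00684), ATG3 (0.552, adjusted p = 0.00462), CTSD (0.542, adjusted p = 0.000198), GLA (0.533, adjusted p = 0.0154), LAMP1 (0.475, adjusted p = 0.000187), ULK1 (0.468, adjusted p = 0.00564), CTSA (0.41, adjusted p = 0.00178) and SCARB2 (0.314, adjusted p = 0.0474). It was negative for SQSTM1 (-0.591, adjusted p = 1.86e-05) and WIPI1 (-0.55, adjusted p = 0.00433).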

How the results depend on the processing

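No called result of the 48 genes became a call in the opposite direction. Changes that were not called could change sign. The median log2 change of the ATG8 family with MPP on the dish was -0.0208, and 0.0835 with equal library totals. Over the 10 alternatives that kept all libraries, 2296 of 2347 values kept their side of the threshold, 26 lost the call and 25 gained it. With each of the 16 libraries left out in turn, 2241 of 2304 kept their side, 51 lost the call and 12 gained it. Of the 96 called results 76 were never lost. The genes called numbered 19 to 21 for MPP on the dish (20 with all libraries), 16 to 18 for MPP in the scaffold (19), 23 to 25 for untreated 3D against 2D (26), 19 to 20 with MPP (20) and 10 to 11 for the difference of the MPP effects (11). A minimum of 1.5-fold left 8, 1, 6, 4 and 2 genes in the same order, fewer by its own construction. With edgeR on the recovered reads the counts were 20, 18, 26, 21 and 11, and with DESeq2 21, 19, 27, 21 and 12. With only the groups compared in the fit, MPP in the scaffold called 13 higher and none lower, and on the dish 13 higher and 12 lower. The cause was not tested, and the shares of all genes called in that fit are not given here. The calls lost there were those of ULK2, PIK3C3, ATG12, WIPI1, WIPI2 and CTSB with MPP in the scaffold and of ATG4A and WIPI1 between untreated cultures (adjusted p of 0.0503 to 0.155). Equal library totals gave 8 higher and 3 lower for the difference of the effects. A mean of at least 50 left out CTSZ.

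Replicate numbers were shared between groups, but same-numbered libraries did not clearly deviate together (24 correlations of -0.115 to 0.0896, and 5 of 24 highest for the own number). No pairing by number was detected, and such correlations cannot show that same-numbered libraries shared no culture or preparation. With the replicate block the genes called were 20, 18, 26, 20 and 10; it ended the call of WIPI2 with MPP in the scaffold (adjusted p = 0.0688) and of the difference for SCARB2 (0.0709), and changed no other call of a gene. Depth limits mainly CTSZ and LAMP3, the genes with the lowest counts.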
